A study of Mus musculus with 212 samples.

Results

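Single cells named D5, for day 5 of a mouse embryonic stem cell culture, were set against single cells named E7.5, for a mouse embryo of embryonic day 7.5, to ask how early mesoderm compares in a dish and in the embryo. The 12 cells, 6 of each name, were chosen by the cell names written inside the tables from 200 cells in 7 tables. Each cell was sorted, lysed and reverse transcribed, and 42 TaqMan assays of 33 genes were read on a 48x48 microfluidic chip. Values are given as 25 minus the quantification cycle (Ct), in cycles above the limit of 25. A value of 0 stands for not detected, and 1 cycle is 1 unit on the log2 scale (a doubling of template) at full PCR efficiency.

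The sample titles contradict the tables. The columns that hold the D5 cells are titled as E10.5 cells with mouse embryo as their source, and those of the E7.5 cells as late ES-derived cells from an embryoid body. The direction of every difference below rests on the names inside the tables. The labels call all 12 cells cardiac and give no strain, genotype, treatment, embryo dissection, sort marker or culture method. No animal and no culture is named, so each set is 1 sample, no difference could be tested, and the SD is the spread between cells.

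At gastrulation, cells leave the epiblast and become mesoderm. Mesp1, a transcription factor of the earliest cardiovascular mesoderm, is on only briefly, while Flk-1 (Kdr, the main VEGF receptor) and Pdgfra (a PDGF receptor) stay on the surface of its descendants. Cells that keep Pdgfra lean towards the heart and mesenchyme, and cells that keep Flk-1 and gain Cdh5 (VE-cadherin, a junction protein) become endothelium. Hand1 is a transcription factor of lateral and extraembryonic mesoderm and of the developing heart.

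Cells D5-1 to D5-5 were a near-uniform group with Hand1, Pdgfra, Sm22A and Vim. D5-6 lacked Pdgfra and Flk-1, and the E7.5 cells were mixed. In the embryo 3 of 6 cells carried Flk-1 with Cdh5 and Pecam1, 1 cell carried Flk-1 with Pdgfra and Hand1, 1 cell carried Flk-1 with Hand1 but neither Pdgfra nor Cdh5, and 1 cell carried none of the 5 early mesoderm markers. Of all 42 assays, 12 averaged at least 1 cycle higher in D5 cells (28.6%) and 8 at least 1 cycle lower (19%). Another 11 lay within 1 cycle, and 11 were detected in no cell of either set. Actb (beta-actin, the housekeeping assay) itself stood 1.16 cycles higher in D5 cells. With each cell centred on Actb the split was 5 higher and 7 lower, and with each cell centred on the median of its detected assays it was 8 and 8. In both centrings an undetected value took the lowest centred value of the 12 cells. Differences that rest on the number of detecting cells therefore changed size for that reason as well. The part of input or cell size in the 12 higher assays was not tested. The median difference over all assays (42, or 41 on the Actb scale) was 0.00 cycles under all 3 scalings. The 11 assays detected in no cell sit at 0 in each scaling, so this median cannot show whether the sets were shifted. Over detecting cells alone it was 1.10 cycles, for the 10 assays detected in at least 3 cells of each set.

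**Figure D1:**
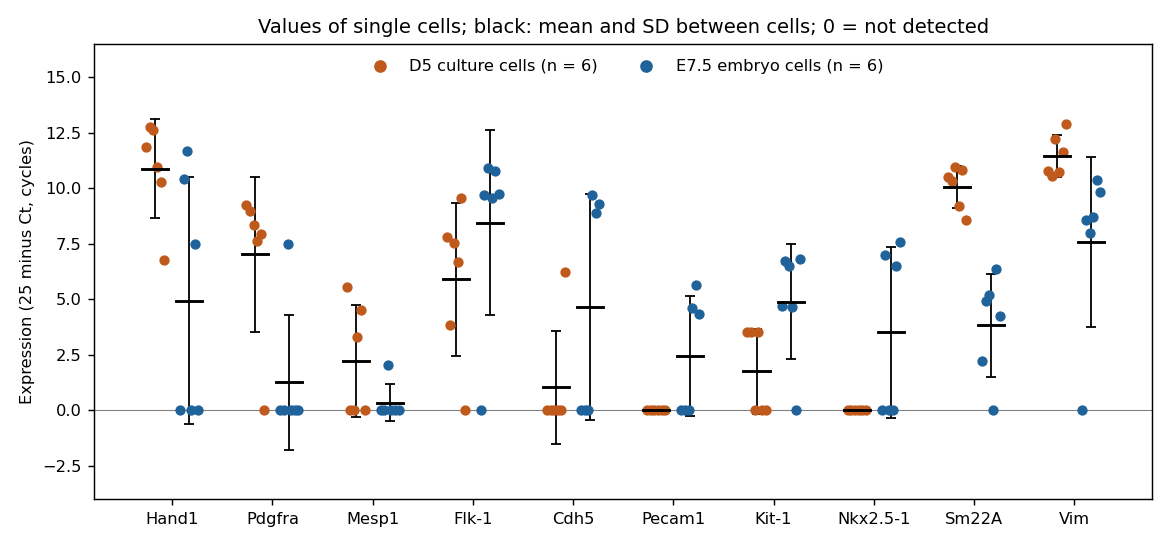
Expression of 10 assays (25 minus Ct, cycles; 0 = not detected) in the 6 D5 and the 6 E7.5 cells, 1 point per cell, with the mean and SD between cells in black. Hand1 and Sm22A were detected in all 6 D5 cells, Pdgfra in 5 of 6 D5 and 1 of 6 E7.5 cells, and Pecam1 and Nkx2.5-1 in 3 E7.5 cells and no D5 cell.

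Among the 5 early mesoderm markers, Hand1, Pdgfra and Mesp1 averaged higher in D5 cells, and Flk-1 and Cdh5 lower. Hand1 was at 11.88, 12.76, 12.63, 10.96, 10.30 and 6.77 cycles in cells D5-1 to D5-6. In cells E7.5-1 to E7.5-6 it was at 0, 10.41, 11.66, 0, 7.47 and 0. The E7.5 cells thus fell into 3 with Hand1 and 3 without, and those with it overlapped the D5 range. The means were 10.88 ± 2.23 and 4.92 ± 5.56 (SD, n = 6 each), a difference of 5.96 cycles. Over detecting cells alone the difference was 1.04 cycles, so most of it was the number of cells with Hand1.

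Pdgfra was at 9.26, 8.97, 8.34, 7.64, 7.94 and 0 in the D5 cells and at 0, 0, 7.48, 0, 0 and 0 in the E7.5 cells. It was thus on in 5 of 6 D5 cells (83.33%, exact Clopper-Pearson 95% interval 35.88 to 99.58%) and in 1 of 6 E7.5 cells (16.67%, 0.42 to 64.12%). These intervals cover counting error only. The single E7.5 value lay just under 7.64, the lowest value of the 5 D5 cells that detected Pdgfra, and above D5-6, which did not. The means were 7.02 ± 3.49 and 1.25 ± 3.05 (SD, n = 6 each), a difference of 5.78 cycles that was 3.87 on the Actb scale. Pdgfra was among 4 assays (9.52%) whose share of detecting cells was at least 50 percentage points higher in D5 cells, with Hand1, Hand2 and Tnnt2-2. As many assays (9.52%) had a share that much lower: Nkx2.5-1, Nkx2.5-2, Pecam1 and Vwf.

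Mesp1 was weak in both sets. It was at 5.53, 0, 0, 3.29, 4.51 and 0 in the D5 cells, and at 2.05 in E7.5-3 and 0 in the other E7.5 cells. E7.5-3 was also the only E7.5 cell with Pdgfra. The means were 2.22 ± 2.53 and 0.34 ± 0.84 (SD, n = 6 each), 1.88 cycles apart, or 1.22 without D5-1 and 0.88 on the Actb scale. The D5 mean was nevertheless the highest of the 21 named sets of cells in the 7 tables.

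Flk-1 went the other way among the cells that had it. Its values were 7.79, 3.83, 7.51, 6.68, 9.55 and 0 in the D5 cells and 0, 9.68, 10.91, 9.57, 10.78 and 9.75 in the E7.5 cells. The same number of cells, 5 of 6, detected it in each set, and each of the 5 E7.5 values stood above every D5 value. The means were 5.89 ± 3.44 and 8.45 ± 4.18 (SD, n = 6 each), the second highest and the highest of the 21 sets. The difference was -2.56 cycles, -3.70 on the Actb scale and -3.07 over detecting cells. It rested partly on the cell without Flk-1 in each set, at -1.38 without D5-6 and -4.24 without E7.5-1.

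Kit, the receptor of stem cell factor, was the other receptor lower in D5 cells. Assay Kit-1 was at 3.52, 3.51, 0, 3.50, 0 and 0 in the D5 cells and at 4.69, 6.71, 6.50, 4.63, 0 and 6.82 in the E7.5 cells. Each E7.5 cell that detected it was above all D5 cells, and the means were 1.76 ± 1.92 and 4.89 ± 2.60 (SD, n = 6 each), a difference of -3.14 cycles. The second Kit assay did not follow it cell by cell. Kit-2 was detected in D5-4 at 3.89 and in E7.5-1 and E7.5-5 at 3.90 and 3.67, and E7.5-5 lacked Kit-1. In the 180 distinct cells outside the 12, both Kit assays were detected in 16, Kit-1 alone in 30 and Kit-2 alone in 38, so a Kit value of a single cell rests on the assay used.

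The endothelial genes averaged at least 1 cycle lower in D5 cells in 4 of 4 assays, under all 3 scalings, against 19% of all 42 assays as measured. Their median difference was -2.49 cycles. Flk-1 is counted here as well as among the early mesoderm markers. Cdh5 was at 6.23 in D5-6 and 0 in the other D5 cells. In the E7.5 cells it was at 0, 0, 0, 9.69, 8.89 and 9.27, within the 7.52 to 9.96 of the reference cells named EDC. The means were 1.04 ± 2.54 and 4.64 ± 5.09 (SD, n = 6 each), a difference of -3.60 cycles.

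Pecam1, an endothelial adhesion molecule, was detected in the same 3 embryo cells as Cdh5, at 4.60, 5.65 and 4.34, and in 0 of 6 D5 cells. A count of 0 of 6 allows a share of up to 45.93% (exact 95% interval). Vwf, the von Willebrand factor of endothelial cells, was at 5.30, 5.35 and 3.57 in E7.5-2, E7.5-5 and E7.5-6 and in 0 of 6 D5 cells. E7.5-2 thus had Vwf with neither Cdh5 nor Pecam1, and E7.5-4 had Cdh5 and Pecam1 without Vwf. The differences of means were -2.43 cycles for Pecam1 and -2.37 for Vwf. With a detection limit 2 cycles stricter they were -1.43 and -1.37. That limit took 2 cycles off each detected value and changed no detection, so the smaller differences follow from the unequal shares of detecting cells.

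In combination, Flk-1, Pdgfra and Hand1 were detected together in 5 of 6 D5 cells and in 1 of 6 E7.5 cells. Flk-1 and Cdh5 were together in 0 of 6 D5 and 3 of 6 E7.5 cells. Pdgfra and Cdh5 were together in no cell of either set. The exception among D5 cells was D5-6, which had Cdh5 without Flk-1, Pdgfra, Pecam1 or Vwf. E7.5-5 carried Hand1 at 7.47 beside Cdh5, so Hand1 was not restricted to cells without endothelial genes. No blood gene was among the assays, and neither was an endoderm gene.

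**Figure D2:**
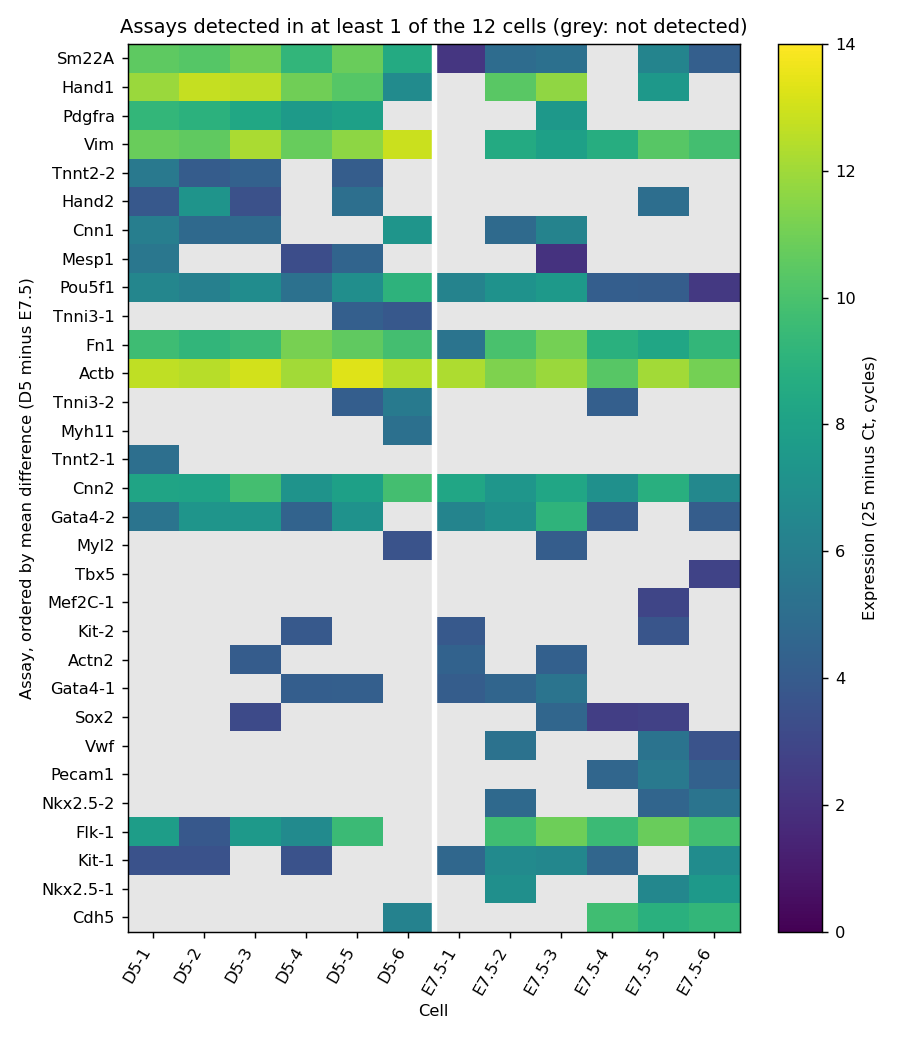
Expression (25 minus Ct, cycles; grey = not detected) of the 31 assays detected in at least 1 of the 12 cells, assays ordered by the difference of means and cells in columns. Cells D5-1 to D5-5 share Hand1, Pdgfra and Flk-1, D5-6 lacks Pdgfra and Flk-1, and cells E7.5-4 to E7.5-6 share Cdh5 and Pecam1.

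The cardiac transcription factors separated Nkx2.5 from the rest. Nkx2.5 (Nkx2-5), the homeobox factor of committed cardiac progenitors, was read by a pair of assays, and neither gave a signal in any D5 cell. Nkx2.5-1 was at 0, 6.98, 0, 0, 6.49 and 7.58 in the E7.5 cells, and Nkx2.5-2 at 0, 4.79, 0, 0, 4.57 and 5.36. Both assays thus marked the same 3 cells. Nkx2.5-1 read 2.11 cycles more than Nkx2.5-2 there, against 2.52 ± 0.77 (SD) in the 126 other distinct cells with both. The differences of means were -3.51 and -2.45 cycles, and -2.51 and -1.45 with the stricter limit. Undetected cells, which count as 0, entered the E7.5 means too, so these are not bounds.

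The 3 cells with Nkx2.5 had no contractile signal. E7.5-2, E7.5-5 and E7.5-6 detected 0 of the 12 assays of cardiomyocyte contractile, channel and calcium-handling genes. All 126 other distinct cells with both Nkx2.5 assays detected 7 to 12 of them, with a median of 10. The same embryo cells carried vessel genes: E7.5-5 and E7.5-6 had Flk-1, Cdh5, Pecam1 and Vwf, and E7.5-2 had Flk-1 and Vwf. Elsewhere, 6 of the 126 cells with Nkx2.5 detected Cdh5, and each of those also detected Tnnt2-2. None of the 5 reference cells named EDC detected Nkx2.5-1. These cells were picked out after their values were seen.

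The other cardiac factors were low or shared. Gata4-2, an assay of the zinc finger factor Gata4, was at 5.40, 7.28, 7.30, 4.47, 7.11 and 0 in the D5 cells and at 6.30, 6.95, 9.08, 3.95, 0 and 4.13 in the E7.5 cells. The ranges overlapped, and the difference of means, 0.19 cycles, had no settled sign. It was 1.24 without D5-6, -0.82 without E7.5-5 and -0.92 on the Actb scale. Gata4-1, the less sensitive assay, averaged 1.40 ± 2.17 and 2.34 ± 2.60 (SD, n = 6 each), a difference of -0.94 that passed 1 cycle after median centring (-1.01) and with medians over cells (-2.06). It ran from -1.51 without D5-5 to -0.34 without E7.5-3.

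Hand2, the relative of Hand1 in the heart field, was at 3.85, 7.25, 3.48, 0, 5.09 and 0 in the D5 cells and at 5.05 in E7.5-5 alone. All 4 D5 cells with Hand2 also had Hand1, as did E7.5-5. The difference was 2.44 cycles, and 0.89 on the Actb scale. Mef2C-1 was detected in E7.5-5 alone at 2.91, and Tbx5, a factor of the atria and left ventricle, in E7.5-6 alone at 2.84. Isl1-1, Isl1-2 and Mef2C-2 were detected in none of the 12 cells. Of the 10 assays of cardiac factors, 1 was higher, 2 were lower and 7 lay within 1 cycle, with a median difference of -0.24 cycles. Over all 42 assays, 28.6% were higher and 19% lower.

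Contractile genes were scarce in both sets. Of 12 assays, 2 averaged at least 1 cycle higher in D5 cells and none lower, against 28.6% higher and 19% lower of all 42 assays. Another 6 (Hcn4, Myh6-1, Myh6-2, Myh7-1, Myh7-2 and Sln) were detected nowhere. Tnnt2-2, cardiac troponin T, was at 5.64, 4.08, 4.35, 0, 4.15 and 0 in the D5 cells and at 0 in all 6 E7.5 cells, a difference of 3.04 cycles as measured, 1.70 with the stricter limit and 1.16 on the Actb scale. Its partner assay Tnnt2-1 gave a signal in D5-1 alone, at 5.12. None of the 5 reference cells named CPC detected Tnnt2-2, while the D6 cells averaged 6.32 ± 4.24 (SD, n = 6).

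Tnni3-1, cardiac troponin I, was at 4.24 in D5-5 and 3.88 in D5-6 and in no E7.5 cell. Its difference of 1.35 cycles fell below 1 without either cell, at 0.78 and 0.85, and was 0.43 on the Actb scale. Tnni3-2 was found in the same 2 D5 cells, at 4.17 and 5.76, and in E7.5-4 at 4.25. Scattered single signals completed this group. Actn2 was at 4.10 in D5-3, 4.42 in E7.5-1 and 4.28 in E7.5-3, and Myl2 at 3.59 in D5-6 and 4.14 in E7.5-3.

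The clearest separation lay in the cytoskeleton. Sm22A (transgelin, an actin-binding protein of smooth muscle and of early myocardium) was at 10.33, 10.97, 9.21, 10.81 and 8.58 in cells D5-2 to D5-6, with D5-1 between D5-2 and D5-5. In the E7.5 cells it was at 2.22, 4.93, 5.19, 0, 6.34 and 4.25. Every D5 cell thus lay above every E7.5 cell in the values as measured. This held for 2 of the 42 assays (4.76%), Sm22A and, by 0.17 cycles, Vim. The means were 10.07 ± 0.96 and 3.82 ± 2.32 (SD, n = 6 each), a difference of 6.25 cycles, the largest of all assays, and of 5.03 on the Actb scale. The D5 mean was close to that of the CPC cells (9.64 ± 2.83, SD, n = 5) and below that of the reference cells named SMC (11.91 ± 1.11, SD, n = 5).

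Vim, the intermediate filament of mesenchymal cells, was at 10.79, 10.56, 12.24, 10.72, 11.62 and 12.89 in the D5 cells and at 0, 8.58, 7.98, 8.70, 10.39 and 9.82 in the E7.5 cells. The sets came near to touching, with 10.39 in E7.5-5 under the lowest D5 value of 10.56. Set against Actb they overlapped: E7.5-6 (Vim 9.82, Actb 11.06) stood above D5-1 (Vim 10.79, Actb 12.68). The means were 11.47 ± 0.95 and 7.58 ± 3.82 (SD, n = 6 each). The difference was 3.89 cycles, 2.36 on the Actb scale and 2.37 without E7.5-1, the cell that lacked Vim.

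Other smooth muscle and matrix genes differed less. Cnn1, a calponin of smooth muscle, was at 6.0, 4.77, 4.83, 0, 0 and 7.32 in the D5 cells and at 4.83 and 6.25 in E7.5-2 and E7.5-3 alone. Its difference of 1.98 cycles was 1.28 without D5-6 and 0.76 on the Actb scale. Cnn2, the more widely expressed calponin, was detected in all 12 cells at 6.53 to 9.82, and its difference of 0.79 cycles was 1.05 without D5-4, 1.01 without E7.5-5 and -0.37 on the Actb scale. Myh11, smooth muscle myosin, was detected in D5-6 alone at 5.19. Fn1, the matrix protein fibronectin, was detected in all 12 cells. It averaged 9.98 ± 0.73 and 8.82 ± 1.95 (SD, n = 6 each), a difference of 1.17 cycles that was 0.48 without E7.5-1, 0.94 without D5-4 and 0.00 on the Actb scale. Vcam1 was detected in no cell.

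**Figure D3:**
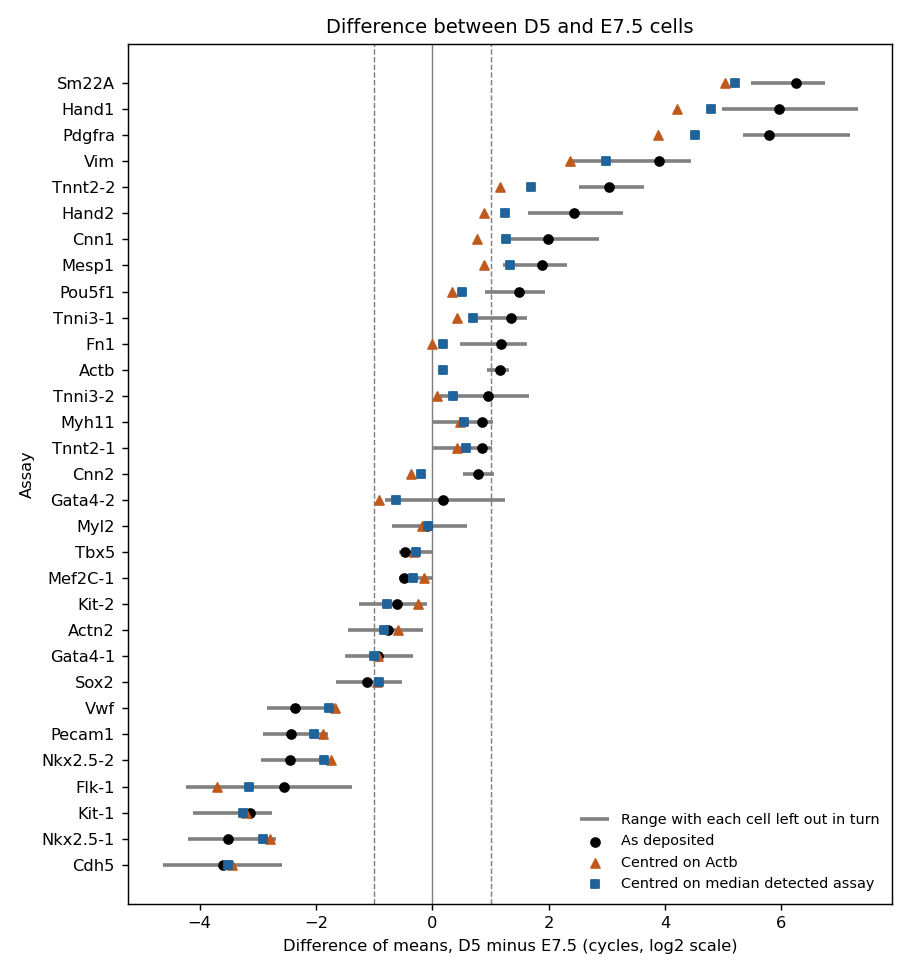
Difference of means, D5 minus E7.5 (cycles, log2 scale), of the 31 detected assays as deposited, centred on Actb and centred on the median detected assay, with the range when each of the 12 cells is left out in turn in grey and 1 cycle as dashed lines. Sm22A, Hand1, Pdgfra, Vim and Tnnt2-2 lie above 1 cycle under all 3 scalings and Cdh5, Kit-1, Flk-1, Nkx2.5-1, Nkx2.5-2, Pecam1 and Vwf below -1, while Pou5f1, Tnni3-1, Fn1 and Actb lie within 1 cycle in both centred sets or, for Actb, in the median-centred set.

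Pluripotency genes did not order the sets firmly. Pou5f1 (Oct4), which epiblast cells carry into gastrulation, was at 6.41, 6.12, 6.80, 5.22, 6.92 and 9.04 in the D5 cells and at 6.28, 7.15, 7.51, 4.17, 4.13 and 2.31 in the E7.5 cells. The ranges overlapped, and within the embryo set the 3 cells with Cdh5 had the 3 lowest values. The means were 6.75 ± 1.27 and 5.26 ± 2.04 (SD, n = 6 each). The difference of 1.49 cycles was 0.90 without E7.5-6 and 0.33 on the Actb scale. This assay also read 5.33 ± 0.22 (SD, n = 5) in the reference cells named CM, so levels of that size were not particular to early cells. The value of D5-6 reached that of the reference cells named ES (8.99 ± 0.65, SD, n = 5).

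Sox2 was at 3.14 in D5-3 and at 4.64, 2.60 and 2.68 in E7.5-3, E7.5-4 and E7.5-5. The difference of -1.13 cycles fell within 1 cycle on the Actb scale (-0.95) and without E7.5-3, E7.5-4 or E7.5-5 (-0.53, -0.94 and -0.93). Actb was at 12.04 to 13.31 in the D5 cells and 10.38 to 12.29 in the E7.5 cells, with means of 12.66 ± 0.46 and 11.50 ± 0.72 (SD, n = 6 each). The D5 mean was the highest of the 21 sets. Its difference of 1.16 cycles was 0.94 without E7.5-4.

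The cells were then compared one by one with the 6 reference types of 5 cells each, over the 41 assays other than Actb. These correlations describe profiles that share the same chip assays, and they carry no test. D5-1 to D5-5 were nearest to the CPC mean, with r of 0.87, 0.94, 0.91, 0.89 and 0.84. The CPC cells have Hand1 (11.22 ± 1.19) and Pdgfra (8.16 ± 0.83, SD, n = 5 each) at the levels of those D5 cells. D5-6 was nearest to SMC (0.72), with FB at 0.68 and CPC at 0.65 close behind. It had Cnn1, Myh11, Sm22A and the highest Vim value of the 12 cells. Its Sm22A (8.58) was the lowest of the D5 cells, and its Myh11 (5.19) lay far below the SMC mean (11.75 ± 0.70, SD, n = 5). D5-6 also lacked Mef2C-1, which 5 of 5 SMC cells detected, and was nearest to FB by Spearman correlation.

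In the E7.5 set, E7.5-2 (0.67) and E7.5-3 (0.80) were nearest to CPC. E7.5-4, E7.5-5 and E7.5-6 were nearest to EDC (0.77, 0.76 and 0.73), the reference cells with Cdh5, Pecam1 and Vwf in 5 of 5. E7.5-4 moved to ES when Spearman correlation or detection alone was used. E7.5-1 had no close type, with FB at 0.56 and ES at 0.55. It detected 10 assays, the fewest of the 12 cells, and had Kit-1, Kit-2, both Gata4 assays and Pou5f1, but its Actb value of 12.29 was the highest of the E7.5 set. Hand1 was thus in 6 of 6 D5 cells. Of the 5 markers of early mesoderm, D5-1 to D5-5 had 3 or 4, and D5-6 had Hand1 and Cdh5 alone. Between 2 and 4 of these markers were in 5 of 6 E7.5 cells, 3 of which had the endothelial markers beside Flk-1.

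**Figure D4:**
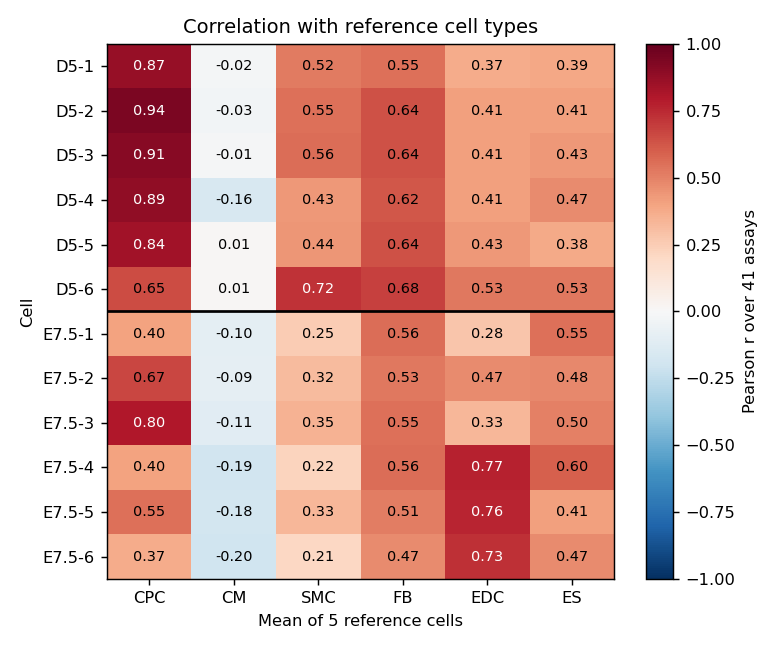
Pearson correlation over 41 assays of each of the 12 cells (rows) with the mean of the 5 cells of 6 reference sets (columns, named as in the tables). Cells D5-1 to D5-5 are highest for CPC at 0.84 to 0.94, E7.5-4 to E7.5-6 for EDC at 0.73 to 0.77, and no cell exceeds 0.01 for CM.

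Cell-to-cell likeness, taken from the same values, also differed in spread. All D5 cells correlated with each other at 0.61 to 0.94 (median 0.87, 15 pairs). Cells D5-1 to D5-5, grouped after their values were seen, did so at 0.86 to 0.94 (median 0.89, 10 pairs). D5-6 correlated with them at 0.61 to 0.66. The E7.5 cells correlated with each other at 0.19 to 0.82 (median 0.54, 15 pairs), and with the D5 cells at 0.32 to 0.84 (median 0.52, 36 pairs). E7.5-3 was the embryo cell most like the culture, at 0.77 to 0.84 with D5-1 to D5-5, and E7.5-1 the least, at 0.32 to 0.47. The number of detected assays did not separate the sets, with 14.67 ± 1.21 in D5 cells and 14.33 ± 2.80 in E7.5 cells (SD, n = 6 each).

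Among the embryo stages E7.5 was nearest to D5, and among the culture days D5 was nearest to E7.5. Culture days were not compared with each other here, nor were embryo stages. The E7.5 mean correlated with D5 at 0.75, with D6 at 0.55, with D7 at 0.02 and with D8 at -0.09. The D5 mean correlated with E8.5 at 0.37, with E9.5 at 0.14 and with E10.5 at 0.06. Of the culture days, D5 was nearest to each of the 6 E7.5 cells. Of the embryo stages, E7.5 was nearest to each of the 6 D5 cells. Root mean square differences gave the same order for the first steps, 2.30 cycles between E7.5 and D5, 2.81 between E7.5 and D6, and 3.89 between D5 and E8.5.

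The gene differences between D5 and E7.5 did not all carry over to the next day and stage. Pdgfra was on in 6 of 6 D6 cells (8.09 ± 0.72) and in 5 of 6 E8.5 cells (5.68 ± 3.39, SD, n = 6 each), so embryo cells with Pdgfra were common 1 stage later. Nkx2.5-1, detected in 0 of 6 D5 cells, was on in 2 of 6 D6 cells at 7.48 and 10.69, and in 4 of 6 E8.5 cells at 9.01 to 11.59. Those 4 E8.5 cells detected 10 to 11 contractile assays and no Cdh5.

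Cdh5 was detected in 1 of 6 D5 cells and in 0 of 6 D6 cells. In the embryo it was on in 2 of 6 E8.5 cells, at 12.12 and 11.43, both with Flk-1 (10.95 and 9.90) and Pecam1. The first of them, E8.5-1, also had Pdgfra (4.84) and Hand1 (4.89), so Pdgfra and Cdh5 did occur together at that stage. Sm22A means ran in opposite directions over these steps. They were 10.07 ± 0.96, 7.08 ± 4.35 and 3.38 ± 3.99 in D5, D6 and D7 cells, and 3.82 ± 2.32, 6.79 ± 3.57 and 11.35 ± 1.17 in E7.5, E8.5 and E9.5 cells (SD, n = 6 each). Pairing a culture day with an embryo stage here follows the names of the sets, and no label equates them.

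**Figure D5:**
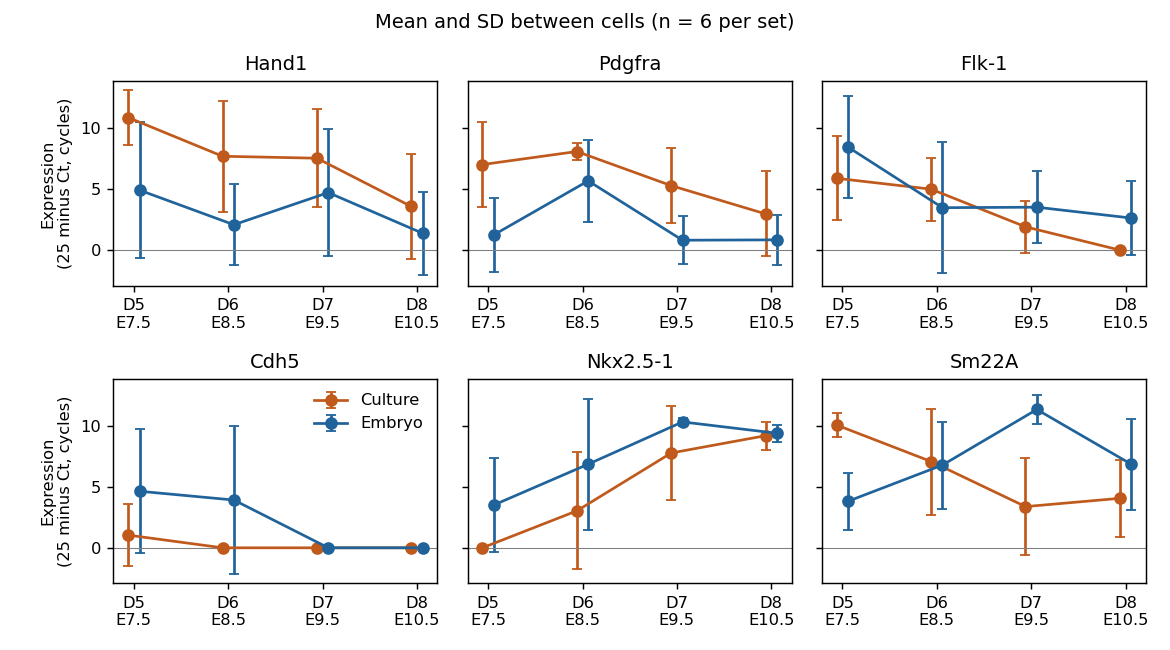
Mean and SD between cells (n = 6 per set) of 6 assays (25 minus Ct, cycles) over culture days D5 to D8 and embryo stages E7.5 to E10.5, placed side by side by order in their tables. At the first position Hand1, Pdgfra and Sm22A are higher in culture and Flk-1, Cdh5 and Nkx2.5-1 in the embryo, and at the second Sm22A is at 6.79 in the embryo with overlapping SDs.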

How the data were processed

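The authors deposited quantification cycles (Ct) per assay and cell, which are other than counts. Per the labels' protocols, single cells were sorted into strips, and their cDNA was made in the lysate, amplified ahead with the TaqMan assays and read on 48x48 Fluidigm chips in a BioMark machine. The Ct threshold, cycle number and any cell filter are not stated in the labels or tables used here. No value of the 12 cells lay between 23 and 25, and the lowest detected value was 2.05 cycles. A transcript too weak to reach the limit of 25 reads as absent. Negative controls detected 0 assays in the 3 tables used. The positive controls of these tables were identical in all 42 assays, so the controls may not be separate for each table. Read depth does not apply; 6 cells per set limit the precision.

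Expression was 25 minus Ct, undetected 0, with Python 3.11.15, pandas 2.3.3 and scipy 1.17.1. A difference of means of at least 1 cycle was called. Named assays were the 5 markers, the 12 largest differences each way of at least 1 cycle, those whose detection share differed by 50 points, and members of gene lists. Members and lists were chosen with earlier results of these data known. Besides the 12 cells, 180 distinct cells (repeated columns counted once) served for comparison. Sm22A, which fits Tagln and Tagln2 in RefSeq (GRCm38.p6), was read as Tagln, and assay sequences were not used here. The script for differences was tested on simulated data. The alternatives were 2 centrings, a stricter limit (Ct 23), detecting cells, medians, a cell filter, 1 value per gene, a 2 cycle threshold, each cell left out, and other distances for the profiles.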

Additional observations from a re-analysis of the deposited data

Results flagged for a closer look

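In a set of 6 cells, the highest or lowest cell was picked out where its gap to the nearest other cell exceeded Dixon's 95% critical share of the set's range. The rate of 1 in 20 of that rule is for normal values and does not apply to sets with many zeros. A cell that alone detects an assay is always picked, so the counts are not set against chance. In D5 cells 8 of 42 assays were picked, 7 of them because 1 cell alone detected the assay, and in E7.5 cells 10 were picked, 7 of them for that reason.

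Among D5 cells, D5-6 accounted for 4: it lacked Pdgfra (0.00) and was the only D5 cell with Cdh5 (6.23), Myh11 (5.19) and Myl2 (3.59). The others were Actn2 (4.10) and Sox2 (3.14) in D5-3, Kit-2 (3.89) in D5-4 and Tnnt2-1 (5.12) in D5-1.

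Among E7.5 cells, E7.5-1 alone lacked Flk-1 (0.00) and Vim (0.00), and E7.5-3 alone had Pdgfra (7.48), Mesp1 (2.05) and Myl2 (4.14). E7.5-5 alone lacked Kit-1 (0.00) and alone had Hand2 (5.05) and Mef2C-1 (2.91). Tbx5 (2.84) was in E7.5-6 alone and Tnni3-2 (4.25) in E7.5-4 alone.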

How the results depend on the processing

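The 12 assays at least 1 cycle higher in D5 cells became 5 on the Actb scale, 6 of the 10 assays with enough cells over detecting cells and 6 at a threshold of 2 cycles, and the 8 lower ones became 2 over detecting cells. Under the other settings run, leaving out each cell in turn included, there were 8 to 15 higher and 7 to 10 lower. With D5-6 and E7.5-1 left out together, a setting chosen after seeing the data, there were 11 and 8. The filter on cells with few detected assays left out E7.5-1 and E7.5-4 by a median absolute deviation scaled to the normal SD, and gave 12 and 9. Unscaled, its limit of 17.5 assays would have left out all 6 E7.5 cells, so it was not run. Of 429 values of 23 single assays under these settings, 2 changed sign, Kit-2 (0.04) and Tnni3-2 (-0.02), both with D5-6 and E7.5-1 left out. Of the same values, 426 moved by less than 1 SD between cells and 3 by more: Hand1 (1.04, detecting cells), Tnnt2-2 (1.16, Actb) and Actb (0.18, median centring). In many assays cells without signal widen that SD, so a move within it does not mean that a call was kept. On the Actb scale Hand2 (0.89), Mesp1 (0.88), Cnn1 (0.76), Tnni3-1 (0.43), Pou5f1 (0.33), Fn1 (0.00) and Sox2 (-0.95) fell within 1 cycle. Undetected values took the lowest centred value there, so these shifts mix the level of Actb with the shares of detecting cells. With medians over cells, Actb (0.99), Fn1 (0.64) and Tnni3-1 (0.00) fell below 1 cycle, Gata4-2 reached 1.04 and Gata4-1 reached -2.06. With the stricter limit Sox2 (-0.46) and Tnni3-1 (0.69) fell within 1 cycle, and Hand2 (1.44), Cnn1 (1.31) and Mesp1 (1.21) shrank by over 1.5 times. That limit changed no detection among the 12 cells. These shifts therefore follow from the shares of detecting cells and are no separate check of the differences. Detected assays per cell, 0.33 more in D5 cells, differed by -1.33 under the cell filter and by -0.53 and -0.13 without E7.5-1 and E7.5-4. D5 stayed the culture day nearest to E7.5 by Spearman correlation, Euclidean distance and detection alone, and E7.5 the embryo stage nearest to D5. No paired analysis was possible because the replicate numbers only follow the order of the samples and no test was made.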
